A study of Canis lupus familiaris with 16 samples.

Results

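Protein folding in the endoplasmic reticulum (ER) was examined through 41 genes: 13 chaperones and co-chaperones, 10 disulfide enzymes and oxidases, 5 stress sensors and their transcription factors, 10 genes of ER-associated degradation and 3 genes of protein entry and export. They were chosen by symbol, as the rows of the count tables that carry one of the 41 names. All 41 were among the 39543 symbols of the tables, and all 41 passed the low-count filter that left 15515 genes for testing. The cells were 4 lines grown from hepatocellular carcinomas of dogs and cultured in Advanced DMEM with fetal bovine serum and N-acetyl-L-cysteine. The lines carry the name KU-cHCC and the numbers 001, 002, 004 and 005. Each was exposed for 24 h to sorafenib (30 µM), toceranib (15 µM), Dulbecco's phosphate-buffered saline (DPBS, the vehicle of toceranib) or dimethyl sulfoxide (DMSO, the vehicle of sorafenib), with 1 RNA-seq library per line and arm and 16 libraries in all. Sorafenib is a multikinase inhibitor and toceranib a receptor tyrosine kinase inhibitor used in dogs. The lines serve as replicates, each with 1 library an arm. In the comparisons with cell line as block, p-values rest on how far the difference between arms varies from line to line. The comparisons asked what each drug changes against the DMSO library of the same line, and whether the drugs differ.

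Secreted and membrane proteins enter the ER through a membrane channel, fold there with the help of chaperones and disulfide enzymes, and leave in vesicles coated with COPII proteins. Proteins that do not fold are moved back to the cytosol and destroyed by the proteasome. When unfolded proteins build up, the membrane sensors IRE1 (gene ERN1), PERK (EIF2AK3) and ATF6 start the unfolded protein response, which slows translation and raises the genes of folding, degradation and export. Liver cells secrete large amounts of protein and carry an extensive ER.

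Libraries held 12008366 to 21943572 counts. Of the biliary and epithelial markers fixed for the check, 8 of 8 reached 5 CPM (library-scaled counts) or more in some DMSO library. KU-cHCC-001 had less of these markers, with SOX9 at 1.78 and CLDN4 at 1.68 CPM in its DMSO library. The 8 markers summed to 2018 CPM with sorafenib and 2779 CPM with DMSO in KU-cHCC-001, and to 17870 to 19920 CPM with sorafenib and 26170 to 33680 CPM with DMSO in the other lines. The hepatocyte markers summed to 6.48 to 57.1 CPM with sorafenib, 42.0 to 203.7 CPM with toceranib, 165.6 to 246.9 CPM with DPBS and 22.9 to 90.1 CPM with DMSO. Albumin (ALB) lay at or below 0.424 CPM and SERPINA1 at 0 in every library. Other markers of this list were present: APOB reached 50.3 CPM with DMSO and 167.2 CPM with DPBS, and HNF4A 79.9 and 118.6 CPM. AFP was highest in KU-cHCC-001 with DMSO, at 14.7 CPM. The DPBS libraries went against their labels. Line 001 had 539 genes that exceeded all remaining lines by 4-fold or more in the DMSO and sorafenib libraries. Over these genes, the median log2(CPM + 0.5) was 3.96 in toceranib and -0.72 in DPBS of that label. The DPBS libraries labelled 001 and 004 formed a close pair, as did those labelled 002 and 005. Their counts differed by 2.28 and 2.19 times sampling noise, against 9.15 times or more for every other pair of libraries. The toceranib library of KU-cHCC-005 matched its line in part. Over 22 genes higher in that line by the same rule, the median log2(CPM + 0.5) was 2.35 in the toceranib library and 3.67 in the DMSO library. That library also held stromal transcripts. The 9 stromal markers summed to 15.0 to 80.2 CPM with sorafenib and 23.8 to 870 CPM with toceranib (870 in KU-cHCC-005). The sums were 29.8 to 1053 CPM with DPBS and 19.0 to 212 CPM with DMSO. COL3A1, LUM and DCN were at 0 in every sorafenib and DMSO library, but others of the 9 were present there. TAGLN had 210 CPM with DMSO and 79.2 CPM with sorafenib in KU-cHCC-004, and COL1A1 had 41.4 and 33.6 CPM in KU-cHCC-001. With toceranib KU-cHCC-004 had COL1A1, COL3A1 and ACTA2 at 16.02, 6.54 and 12.15 CPM, against 0.0566, 0 and 2.04 CPM with DMSO. Its 9 stromal markers summed to 233 CPM with toceranib and 212 CPM with DMSO. Over 14 genes higher in line 004 by the same rule, the median log2(CPM + 0.5) was 2.69 with toceranib and 3.47 with DMSO. Counts of toceranib in line 004 differed by 10.9 times sampling noise from toceranib in 005 and 27.9 times from DMSO in 004. For sorafenib in line 004 the same distances were 29.0 and 47.6 times. The 6 leukocyte markers reached 333.7 CPM in the toceranib library of KU-cHCC-001, of which CD74 alone was 321 CPM, with PTPRC and TYROBP at 0 there. DPBS libraries stayed out of the comparisons by line. The part of these markers in the results was not tested.

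Sorafenib raised transcripts of every role group. Of the 41 genes 17 were higher and 1 was lower than with DMSO by edgeR's quasi-likelihood test (Benjamini-Hochberg adjusted p under 0.05, 12 libraries of the sorafenib, toceranib and DMSO arms, cell line as block). Over all 15515 genes, 9.66% were called higher and 9.21% lower. The median log2 fold change of the 41 genes was 0.57, against -0.01 over all genes. In bulk RNA a change in the number of expressing cells and a change in RNA per cell cannot be told apart. As a share of all counts the 41 genes took 1.58% ± 0.355 (SD, n = 4) with sorafenib and 0.882% ± 0.0268 with DMSO. HSPA5 alone weighed heavily in this share, with a mean of 3814 CPM with sorafenib and 744 CPM with DMSO. In 27 of the 41 genes the level was higher with sorafenib in 4 of 4 lines, which held for 25.5% of all genes tested. ATF6B was the only one of the 41 that was lower in 4 of 4 lines (25.3% of all genes). The count of 17 depended on the lines: it was 23 with line 001 left out, 7 with 002, 6 with 004 and 4 with 005 left out. The count over all genes moved too: 1499 were called higher in the main fit, and 1922, 443, 280 and 396 in these fits in turn. HSPA5, HYOU1, SEC23B and SEC24D were called under each of the 10 alternatives tried. Without the line block these and SEL1L were the only genes of the 41 called, so every other call ended there. The calls for SDF2L1 and PDIA6 also ended in the fit of 16 libraries with DPBS included.

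**Figure D1:**
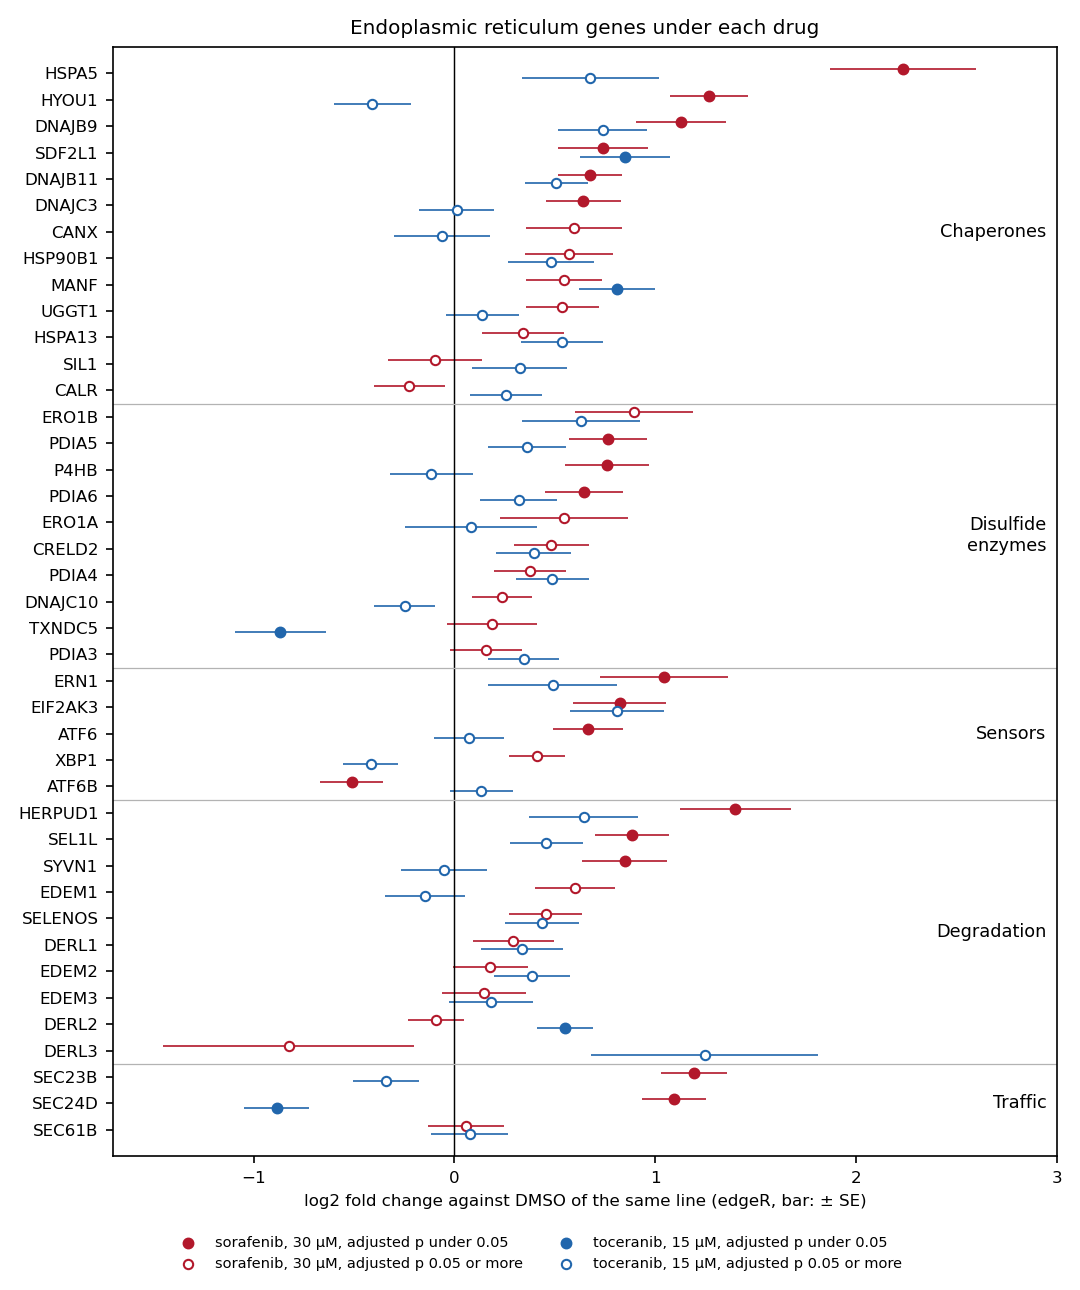
Log2 fold change of each of the 41 genes against DMSO of the same line (x axis; edgeR estimate with SE bars) for sorafenib and toceranib, grouped by role; filled points passed an adjusted p under 0.05. With sorafenib 17 genes lie right of 0 and 1 left of 0 as filled points, led by HSPA5 at 2.24, and with toceranib 3 lie right and 2 left.

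HSPA5 encodes BiP, the Hsp70 chaperone of the ER lumen, which also holds the stress sensors inactive. Its level was 1682, 2243, 6548 and 4785 CPM with sorafenib, against 755, 795, 773 and 651 CPM with DMSO (lines 001, 002, 004 and 005 in turn, as in all lists of 4 levels that follow). The groups did not overlap, and the DMSO libraries lay close together while the sorafenib libraries spread widely, with KU-cHCC-004 and KU-cHCC-005 far above the other lines. HSPA5 rose 4.71-fold (log2 fold change 2.24 ± 0.36, SE, with an adjusted p of 0.00311 by edgeR).

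Of the partners of BiP 5 rose with sorafenib. HYOU1, a large chaperone that exchanges the nucleotide of BiP, stood at 527, 446, 517 and 499 CPM with sorafenib and 295, 214, 158 and 191 CPM with DMSO. Its sorafenib levels were nearly equal in the 4 lines, and the groups did not overlap (log2 fold change 1.27 ± 0.19, edgeR adjusted p = 0.00241). DNAJB9, a J-domain co-chaperone that helps to keep IRE1 inactive, had 26.4, 30.7, 35.1 and 70.5 CPM with sorafenib and 14.6, 13.7, 19.7 and 22.8 CPM with DMSO (1.13 ± 0.22, edgeR adjusted p = 0.00743). The co-chaperones DNAJB11 (0.68 ± 0.16, edgeR adjusted p = 0.0146), DNAJC3 (0.64) and SDF2L1 (0.74 ± 0.23, edgeR adjusted p = 0.0412) rose as well. SDF2L1 did so in 3 of 4 lines: KU-cHCC-001 had 19.2 CPM with sorafenib and 20.5 CPM with DMSO. Calls for DNAJB11, DNAJC3 and SDF2L1 ended without line 002, 004 or 005, with an edgeR adjusted p of up to 0.223, 0.233 and 0.339 over the alternatives, and that of DNAJB9 without KU-cHCC-004 or KU-cHCC-005 (up to 0.0701).

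The other 7 of the 13 chaperones did not pass. HSP90B1, the Hsp90 of the ER, had 911, 1341, 1883 and 2107 CPM with sorafenib, against 869, 1121, 915 and 1164 CPM with DMSO. The difference was smaller in KU-cHCC-001 and KU-cHCC-002 than in the other lines (log2 fold change 0.57 ± 0.22, edgeR adjusted p = 0.0885). Of the lectin chaperones that hold glycoproteins during folding, calnexin (CANX) was at 0.59 (edgeR adjusted p = 0.105) and calreticulin (CALR) at -0.22 (edgeR adjusted p = 0.407). UGGT1, which re-glucosylates misfolded glycoproteins so that these lectins bind them again, had non-overlapping groups, at 224 to 281 CPM with sorafenib and 136 to 214 CPM with DMSO, but missed the threshold (0.54 ± 0.18, edgeR adjusted p = 0.0586). MANF, a small protein that binds BiP, was at 0.55 (edgeR adjusted p = 0.0632), HSPA13 at 0.34 and SIL1, another exchange factor of BiP, at -0.10.

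Of the 10 disulfide enzymes 3 were called, all higher. P4HB, protein disulfide isomerase itself, had 1198, 1715, 2093 and 2179 CPM with sorafenib and 852, 1205, 1000 and 1162 CPM with DMSO. It was higher in each line, with sorafenib of KU-cHCC-001 below DMSO of KU-cHCC-002, so that the groups overlap (log2 fold change 0.76 ± 0.21, edgeR adjusted p = 0.0275). The isomerases PDIA5 (0.77 ± 0.19, edgeR adjusted p = 0.0204) and PDIA6 (0.65) also rose. ERO1B, an oxidase that recharges these isomerases, lay just above the threshold at 0.89 ± 0.29 (edgeR adjusted p = 0.0535), with little difference in KU-cHCC-001 (26.4 CPM with sorafenib and 26.9 CPM with DMSO) and a higher sorafenib level in each other line (13.1 and 5.67, 30.4 and 14.5, 25.8 and 10.1 CPM with sorafenib and DMSO). The remaining 6 ranged from 0.16 (PDIA3) to 0.55 (ERO1A) and had edgeR adjusted p values of 0.0941 or more. All 10 estimates were positive. Without line 002, 004 or 005 none of the calls for P4HB, PDIA5 and PDIA6 held (edgeR adjusted p up to 0.168, 0.219 and 0.252 over the alternatives).

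Of the 5 sensors and transcription factors 3 rose and 1 fell. ERN1 (IRE1), the endonuclease that splices XBP1 mRNA, had 126, 52.3, 80.1 and 61.9 CPM with sorafenib and 53.4, 30.7, 38.1 and 31.4 CPM with DMSO. It was higher in 4 of 4 lines, and the groups overlapped only through the DMSO level of KU-cHCC-001 (log2 fold change 1.04 ± 0.32, edgeR adjusted p = 0.0407). EIF2AK3 (PERK), the kinase that halts translation, had 95, 65.6, 119 and 95.5 CPM with sorafenib and 52.4, 29.7, 62.1 and 71.6 CPM with DMSO (0.82 ± 0.23, edgeR adjusted p = 0.0304). ATF6, a membrane-bound transcription factor that is cut free in the Golgi, had 123, 115, 176 and 146 CPM with sorafenib and 82.5, 77.0, 97.6 and 94.4 CPM with DMSO. Its groups did not overlap (0.66 ± 0.17, edgeR adjusted p = 0.0229).

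ATF6B, the paralogue of ATF6, went the other way. It had 66.6, 96.0, 73.0 and 71.4 CPM with sorafenib and 85.7, 135, 134 and 87.0 CPM with DMSO, lower in 4 of 4 lines (log2 fold change -0.51 ± 0.16, edgeR adjusted p = 0.0418). XBP1, the transcription factor downstream of IRE1, differed by 0.35 to 0.46 in each of the 4 lines, a narrow range, and lay just outside the threshold (0.41 ± 0.14, edgeR adjusted p = 0.0576). Gene counts do not show whether its mRNA was spliced. None of the 4 sensor calls held without line 002, 004 or 005, where the edgeR adjusted p reached up to 0.109 (ATF6), 0.137 (EIF2AK3), 0.188 (ERN1) and 0.233 (ATF6B) over the alternatives; the direction did not change. The calls for ERN1 and ATF6B also ended without the low-count filter, and all 4 ended without the line block.

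Of the 10 degradation genes 3 rose: a scaffold, the ubiquitin ligase and its adaptor. HERPUD1, a membrane scaffold of the degradation complex, had 79.4, 89.2, 318 and 184 CPM with sorafenib and 47.1, 43.2, 81.7 and 59.1 CPM with DMSO. As with HSPA5, KU-cHCC-004 and KU-cHCC-005 were the high sorafenib libraries (log2 fold change 1.40 ± 0.27, edgeR adjusted p = 0.00712). SEL1L, the adaptor of the ligase, had 265, 226, 259 and 317 CPM with sorafenib, against 125, 123, 179 and 154 CPM with DMSO. Here the groups did not overlap, and KU-cHCC-001 showed the largest difference of the 4 lines (0.89 ± 0.18, edgeR adjusted p = 0.00880). SYVN1, the ligase itself, known as HRD1, had 140, 205, 190 and 219 CPM with sorafenib and 104, 112, 98.2 and 103 CPM with DMSO, again without overlap (0.85 ± 0.21, edgeR adjusted p = 0.0192).

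The other 7 degradation genes did not pass. EDEM1, a mannosidase-like protein that marks glycoproteins for degradation, was at 0.60 ± 0.20 (edgeR adjusted p = 0.0552), and its relatives EDEM2 and EDEM3 were at 0.18 and 0.15. SELENOS, which recruits the p97 ATPase to the membrane, was at 0.46. The derlins, membrane proteins of the same exit route, were at 0.29 (DERL1), -0.09 (DERL2) and -0.83 (DERL3). DERL3 rested on 2 to 11 counts per library in the sorafenib and DMSO arms, so its estimate is weak. The calls for HERPUD1 and SEL1L ended without KU-cHCC-005 (edgeR adjusted p up to 0.0669 and 0.0756 over the alternatives), and that of SYVN1 without line 002, 004 or 005 (up to 0.119). Those of HERPUD1 and SYVN1 also ended without the line block.

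Both COPII coat genes rose, and SEC61B did not pass. SEC23B, a subunit of the inner coat, had 176, 266, 198 and 232 CPM with sorafenib and 96.9, 103, 82.2 and 98.9 CPM with DMSO. SEC24D, the cargo-binding subunit, had 217, 141, 201 and 189 CPM with sorafenib, against 118, 61.2, 83.8 and 91.8 CPM with DMSO. In both genes the groups did not overlap, and the log2 fold changes were 1.19 ± 0.16 (edgeR adjusted p = 0.00153) and 1.09 ± 0.16 (edgeR adjusted p = 0.00198). SEC61B, a small subunit of the entry channel, was at 0.06 (edgeR adjusted p = 0.867). In all, 10 of the 41 genes had sorafenib libraries entirely above the DMSO libraries, which held for 6.38% of all genes tested, and 0 lay entirely below (5.39%).

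The lines differed in how far the genes moved. The median difference in log2(CPM + 0.5) over the 41 genes was 0.32 for line 001, 0.55 for 002, 0.69 for 004 and 0.63 for 005, against medians over all genes tested of -0.01 to 0.01. Chaperones showed the widest range, from 0.20 in KU-cHCC-001 to 0.91 in KU-cHCC-004, whereas the sensors were at 0.41 to 0.85 and the traffic genes at 0.86 to 1.25. With 1 library per line and arm these line differences have no test.

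**Figure D2:**
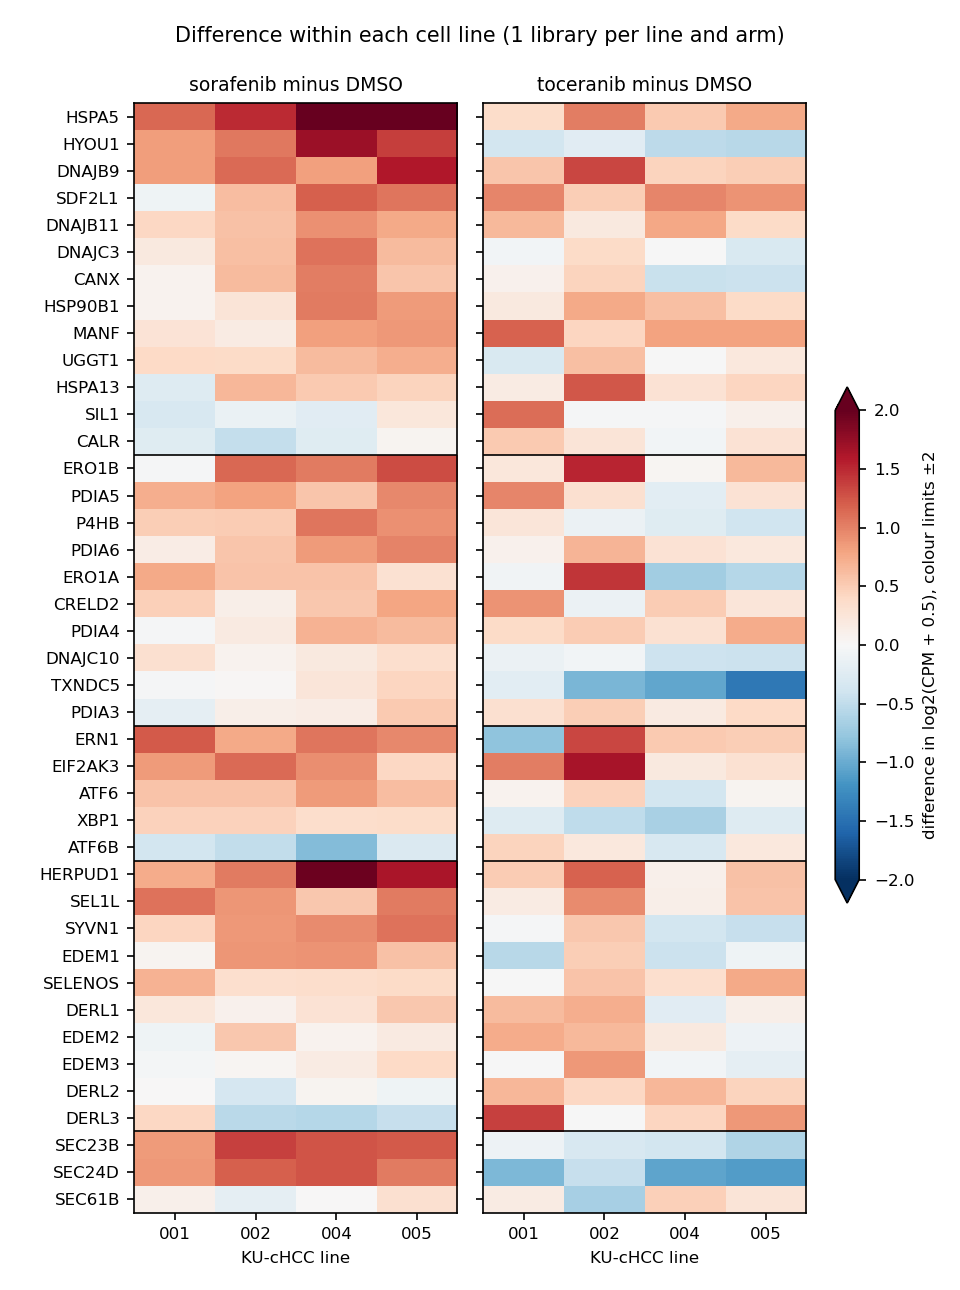
Difference in log2(CPM + 0.5) between each drug library and the DMSO library of the same line, for the 41 genes in the order of the plot of fold changes; each column is 1 cell line, red is higher and blue lower with the drug, and colours stop at 2 in either direction. HSPA5 stood at 3.08 (line 004), 2.88 (005) and 1.15 (001) with sorafenib, and with toceranib SEC24D and TXNDC5 are blue in all 4 lines.

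The neighbouring steps of the secretory pathway were read from 6 further lists of genes. COPII, cargo receptors and retrieval had the highest share: 19 of 29 tested genes rose and 0 fell with sorafenib, with a median of 0.67. Named by the smallest adjusted p, these were KDELR3 (1.39, edgeR adjusted p = 8.49e-04) and KDELR2 (1.11), receptors that return escaped ER proteins, SEC13 (1.21), an outer coat subunit, and ARFGAP3 (1.12), a regulator of retrieval vesicles. Of 23 genes of translocation and signal cleavage 10 rose and 0 fell (median 0.45), among them TRAM1 (1.19), SSR1 (1.43) and the channel subunit SEC61A1 (0.83), which assist entry, and SRPRA (1.11), the receptor of the signal recognition particle. In glycan transfer and trimming 7 of 25 rose, led by GFPT1 (1.17) and UAP1 (0.92), enzymes of the sugar donor pathway, and by OSTC (0.98) and STT3A (0.74) of the oligosaccharyltransferase, while OST4 (-1.04) of the same enzyme fell.

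Signalling partners, other foldases and other degradation genes made up the other lists. Of 15 tested signalling partners 4 rose and 0 fell: PPP1R15A (1.72), which restores translation after PERK, DDIT3 (1.68), the transcription factor CHOP, TRIB3 (1.13), a pseudokinase induced by it, and CREB3 (0.55). ATF4, which PERK favours at the level of translation, was at -0.15 and was not called. Of 25 other foldases 5 rose, among them the prolyl isomerases FKBP14 (1.75), FKBP7 (1.21) and FKBP11 (0.93) and the thioredoxin-like TXNDC11 (0.65). Against these, 3 fell, ERP29 (-0.56), FKBP2 (-0.82) and SDF2 (-0.69), named after their values were seen. In other degradation 7 of 29 rose, with the glycanase NGLY1 (1.15), RNF185 (0.74) and AUP1 (0.69) first, and the ligase RNF5 (-1.09) fell. Over the 146 tested genes of the 6 lists 52 rose and 5 fell, with a median of 0.34 (9.66% of all genes rose and 9.21% fell). Without line 002, 004 or 005 the count of genes that rose in COPII, cargo receptors and retrieval was 10 or 11, and in translocation and signal cleavage 5, 2 and 3. In the same order it was 4, 1 and 2 in glycan transfer and trimming, 3, 0 and 0 by edgeR in other degradation (12, 7 and 10 genes of either direction at an unadjusted p under 0.05), 3, 2 and 2 among signalling partners, and 1 each time among other foldases. Over all genes 443, 280 and 396 were called higher in these fits, against 1499 in the main fit.

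**Figure D3:**
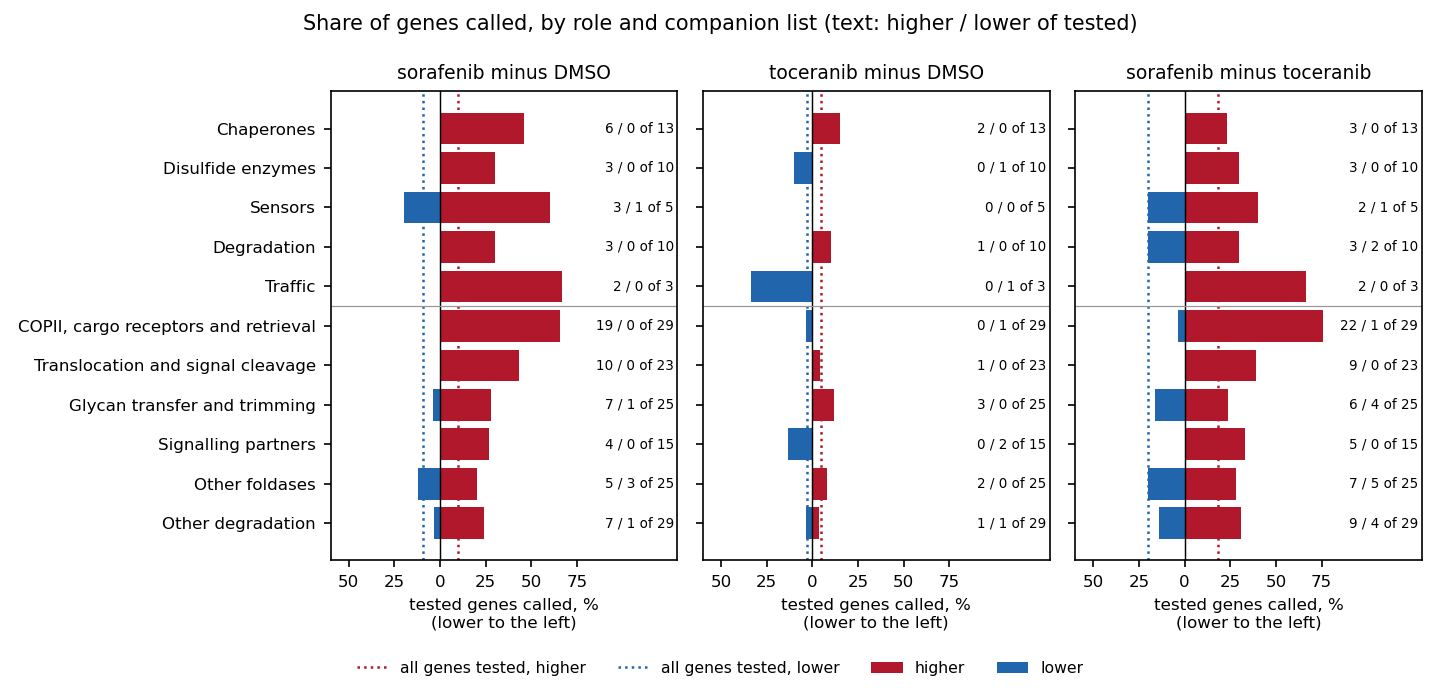
Share of tested genes called higher (red, to the right) or lower (blue, to the left) in each role group of the 41 genes (upper rows) and in each further list (lower rows), in 3 comparisons (edgeR adjusted p under 0.05); dotted lines give the share over all 15515 genes and the text gives the counts. With sorafenib against DMSO 19 of 29 genes of COPII, cargo receptors and retrieval were higher, against 9.66% of all genes.

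Toceranib changed fewer of these genes against DMSO, and the calls were less firm. In the same fit 3 of the 41 genes were higher and 2 were lower, where 7.49% of all genes were called (4.52% higher and 2.97% lower). The median log2 fold change of the 41 was 0.34, against 0.01 over all genes. By line, the median difference in log2(CPM + 0.5) was 0.20 (001), 0.49 (002), 0.03 (004) and 0.25 (005). Against DMSO of the same line 15 of the 41 genes were higher in 4 of 4 lines (16.1% of all genes) and 6 were lower (14.5%). In 4 of the 41 (HSPA5, PDIA4, MANF and DERL2) the toceranib libraries lay entirely above the DMSO libraries (4.26% of all genes), and in 1 (TXNDC5) entirely below (3.40%). DMSO was not the vehicle of toceranib, so the effect of the drug and that of the vehicle or of anything else that set the toceranib and DPBS cultures apart cannot be told apart in this comparison. DPBS levels are given as ranges, without regard to their line labels.

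MANF had 177, 218, 178 and 192 CPM with toceranib, 142 to 177 CPM with DPBS, and 77.9, 162, 102 and 110 CPM with DMSO. Toceranib lay above every DMSO library (log2 fold change 0.81 ± 0.19, edgeR adjusted p = 0.0319), and the DPBS libraries reached up to its range. SDF2L1 had 40.7, 66.7, 81.9 and 88.2 CPM with toceranib, 39.0 to 58.2 CPM with DPBS, and 20.5, 47.3, 41.2 and 47.2 CPM with DMSO (0.85 ± 0.22, edgeR adjusted p = 0.0446). DERL2, the derlin that sorafenib left at -0.09, had 53.0, 69.0, 55.7 and 64.4 CPM with toceranib, 39.3 to 52.6 CPM with DPBS, and 33.3, 51.5, 35.1 and 47.2 CPM with DMSO. Its toceranib libraries lay above every library of either vehicle (0.55 ± 0.14, edgeR adjusted p = 0.0409).

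The lower pair was SEC24D and TXNDC5. SEC24D had 63.0, 44.6, 39.9 and 41.9 CPM with toceranib, 75.4 to 87.2 CPM with DPBS, and 118, 61.2, 83.8 and 91.8 CPM with DMSO. It was below all DPBS libraries and below DMSO in 4 of 4 lines, with an overlap between toceranib of KU-cHCC-001 and DMSO of KU-cHCC-002 (log2 fold change -0.89 ± 0.16, edgeR adjusted p = 0.0180). TXNDC5, a thioredoxin-domain isomerase, had 117, 85.1, 68.9 and 69.4 CPM with toceranib, 85.3 to 97.3 CPM with DPBS, and 136, 162, 143 and 187 CPM with DMSO. Both the toceranib and the DPBS libraries lay below every DMSO library (-0.87 ± 0.23, edgeR adjusted p = 0.0436 for toceranib against DMSO). Stromal markers were high in the toceranib library of KU-cHCC-005, and some were present in that of KU-cHCC-004, as given above. They go with the toceranib values of those lines in each gene, and their part in the calls was not tested. Each of these 5 calls ended in the 8 libraries of toceranib and DMSO alone, where edgeR called 0 of the 41 (15 at an unadjusted p under 0.05) and 129 of all genes. They ended too without the doubtful toceranib library of KU-cHCC-005, with 0 of the 41 (14 at an unadjusted p under 0.05) and 66 of all genes called. The calls also ended without line 002, 004 or 005 (0 of the 41 in each case), while 7 were higher and 2 lower without KU-cHCC-001. Over all genes 1798 were higher and 1246 lower without KU-cHCC-001. Higher and lower calls over all genes numbered 1 and 6 without 002, 3 and 1 without 004, and 1 and 0 without 005. DESeq2 called 7 higher and 3 lower in the 12 libraries (1417 and 979 of all genes).

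HSPA5, HYOU1, HERPUD1 and DNAJB9, all called higher with sorafenib, were not called with toceranib against DMSO. HSPA5 had 974, 1616, 1116 and 1105 CPM with toceranib, 935 to 1044 CPM with DPBS, and 755, 795, 773 and 651 CPM with DMSO. Every toceranib library was above every DMSO library, but so was every DPBS library (log2 fold change 0.68 ± 0.34, edgeR adjusted p = 0.219 for toceranib against DMSO). HYOU1 had 230, 182, 109 and 129 CPM with toceranib, 137 to 157 CPM with DPBS, and 158 to 295 CPM with DMSO, lower in 4 of 4 lines against DMSO without passing (-0.41 ± 0.19, edgeR adjusted p = 0.188). HERPUD1 had 67.5 to 98.5 CPM with toceranib, 63.5 to 73.9 CPM with DPBS and 43.2 to 81.7 CPM with DMSO, higher than DMSO in 4 of 4 lines (0.64 ± 0.27, edgeR adjusted p = 0.148). DNAJB9 had 21.7 to 35.4 CPM with toceranib, 26.6 to 32.0 CPM with DPBS and 13.7 to 22.8 CPM with DMSO. It too was above DMSO in 4 of 4 lines (0.74 ± 0.22, edgeR adjusted p = 0.0635), but every DPBS library was above every DMSO library, and the log2 fold change of toceranib against DPBS was -0.0018.

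Of the sensors none passed with toceranib. EIF2AK3 had the lowest p of the 5 (0.81 ± 0.23, edgeR adjusted p = 0.0560), with 107, 94.3, 71.0 and 88.5 CPM with toceranib, 65.4 to 80.7 CPM with DPBS, and 52.4, 29.7, 62.1 and 71.6 CPM with DMSO. The difference from DMSO was largest in KU-cHCC-002, and the DPBS libraries overlapped both arms. XBP1 had 70.6, 108, 101 and 105 CPM with toceranib, 104 to 134 CPM with DPBS, and 84.5, 154, 159 and 125 CPM with DMSO, lower in 4 of 4 lines (-0.42 ± 0.14, edgeR adjusted p = 0.0808). ERN1 (0.49 ± 0.32, edgeR adjusted p = 0.341), ATF6 (0.07 ± 0.17, edgeR adjusted p = 0.823) and ATF6B (0.13 ± 0.16, edgeR adjusted p = 0.608) had no shared direction over the lines; their DPBS levels were 48.5 to 67.7, 94.1 to 112 and 96.3 to 113 CPM. The remaining 31 genes that were neither called nor a sensor ranged from -0.41 (HYOU1) to 1.25 (DERL3, 11 to 25 counts per toceranib library). Of the 146 genes in the 6 further lists 7 rose and 4 fell with toceranib, near the shares over all genes (4.52% higher and 2.97% lower). COPII, cargo receptors and retrieval had a median of -0.18 with 0 higher and 1 lower.

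**Figure D4:**
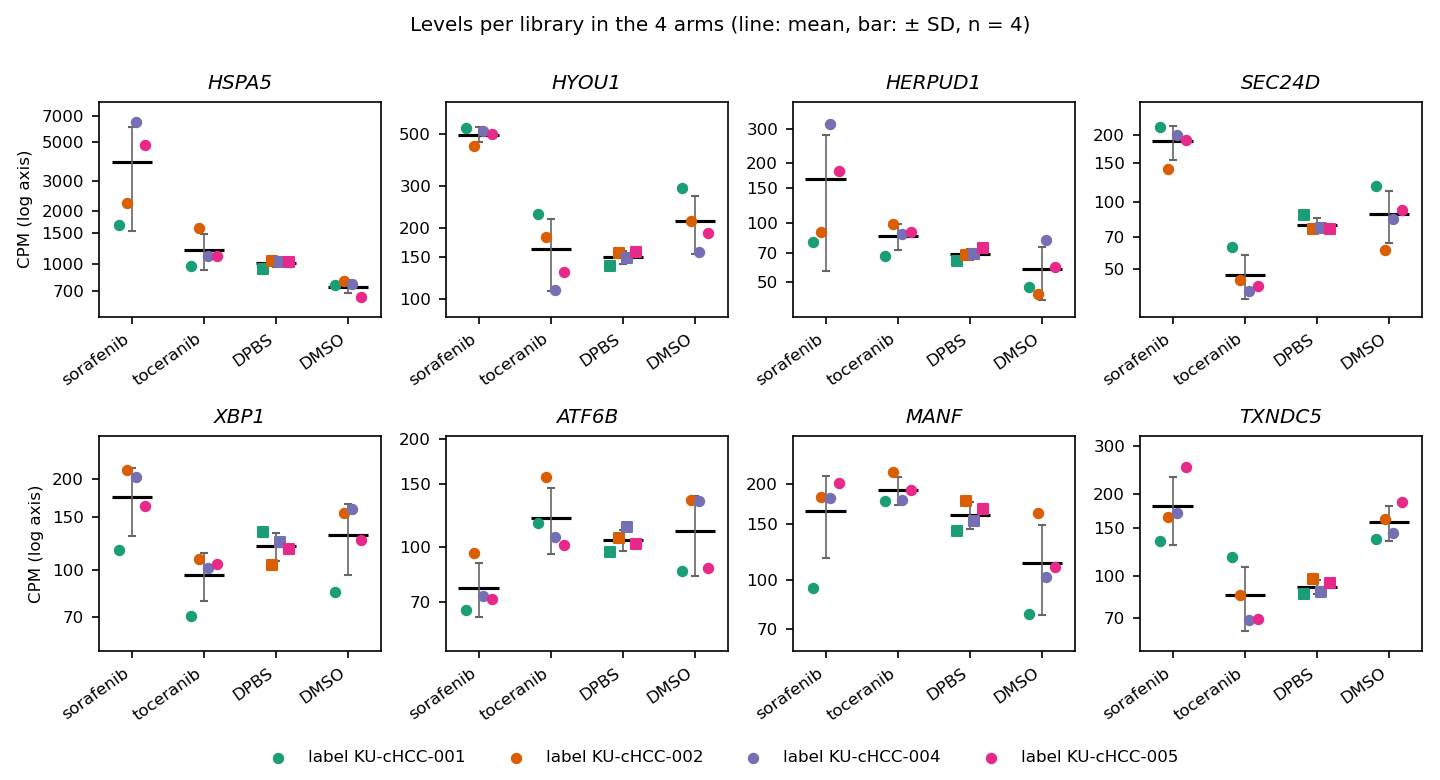
Level of 8 of the genes in each library (points, CPM on a log axis; squares mark DPBS, whose line labels are in doubt) in the 4 arms, with the mean and SD over 4 libraries. The sorafenib libraries of HSPA5 lie between 1682 and 6548 CPM, above every other library, and the toceranib libraries of SEC24D between 39.9 and 63.0 CPM.

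Against its own vehicle, DPBS, toceranib gave no call. In the 16 libraries without a line block edgeR called 0 of the 41 genes (3 at an unadjusted p under 0.05) and 0% of all 15515 genes, of which 1374 had an unadjusted p under 0.05; DESeq2 called 0 of the 41 and 90 of all genes. Log2 fold changes of the 41 ran from -0.75 to 0.53, with a median of 0.21 against 0.05 over all genes. The spread in this fit includes the differences between lines. Levels did not overlap in 7 of the 41 genes. P4HB, CALR, CRELD2 and DERL2 were higher with toceranib in all 4 libraries than in any DPBS library (3.94% of all genes), and DNAJC10, ERO1A and SEC24D were lower (5.57%). ERO1A, an oxidase of the disulfide pathway, had 63.9, 164, 131 and 133 CPM with toceranib, against 186 to 229 CPM with DPBS. CRELD2 had 80.5 to 90.7 CPM with toceranib and 66.9 to 77.4 CPM with DPBS, a difference of small size. As given above, the 4 DPBS libraries form 2 close pairs.

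Sorafenib and toceranib were then set against each other directly, at their unequal doses of 30 and 15 µM. Their vehicles differed too (DMSO and DPBS), so drug, dose and vehicle cannot be told apart in this comparison. Of the 41 genes 13 were higher and 3 were lower with sorafenib than with toceranib, where 38.4% of all genes were called (18.2% higher and 20.2% lower), so the share of the 41 called lower was below the share of all genes. The median log2 difference of the 41 was 0.33, against -0.06 over all genes. The lines did not share it. By line, the median difference in log2(CPM + 0.5) was -0.02 (001), -0.11 (002), 0.54 (004) and 0.54 (005). Sorafenib was the higher arm in 20, 18, 33 and 35 of the 41 genes in turn. The libraries did not overlap in 10 of the 41 genes with sorafenib higher (10.4% of all genes) and in 4 with sorafenib lower (10.2%). Among the genes higher with sorafenib, SEC24D had the largest difference, at 141 to 217 CPM with sorafenib and 39.9 to 63.0 CPM with toceranib (log2 difference 1.98 ± 0.16, edgeR adjusted p = 4.11e-05). HYOU1 (1.68 ± 0.20, edgeR adjusted p = 2.11e-04), HSPA5 (1.56 ± 0.36, edgeR adjusted p = 0.00624) and SEC23B (1.53 ± 0.17, edgeR adjusted p = 1.50e-04) followed, and TXNDC5 (1.05 ± 0.23, edgeR adjusted p = 0.00476), SYVN1 (0.90 ± 0.21, edgeR adjusted p = 0.00763) and P4HB (0.87 ± 0.21, edgeR adjusted p = 0.00790) were also higher with sorafenib. The smaller differences were those of HERPUD1 (0.76), EDEM1 (0.75), DNAJC3 (0.63) and DNAJC10 (0.49), a J-domain reductase that cuts disulfide bonds before degradation.

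The transcription factors XBP1, ATF6 and ATF6B differed between the sorafenib and toceranib arms. Against DMSO, XBP1 had passed with neither drug (edgeR adjusted p = 0.0576 with sorafenib and 0.0808 with toceranib). XBP1 was higher with sorafenib, at 116 to 213 CPM against 70.6 to 108 CPM with toceranib (0.83 ± 0.14, edgeR adjusted p = 0.00129). ATF6 was higher (0.59 ± 0.17, edgeR adjusted p = 0.0204) and ATF6B lower with sorafenib (-0.64 ± 0.16, edgeR adjusted p = 0.00828). For EIF2AK3 (0.01 ± 0.23, edgeR adjusted p = 0.975) and ERN1 (0.55 ± 0.32, edgeR adjusted p = 0.195) no difference was called.

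DERL2, DERL3 and ATF6B were the 3 genes lower with sorafenib. DERL2 had 33.4, 40.7, 36.4 and 44.6 CPM with sorafenib and 53.0, 69.0, 55.7 and 64.4 CPM with toceranib, without overlap (-0.64 ± 0.14, edgeR adjusted p = 0.00495). DERL3 had 2 to 7 counts per sorafenib library and 11 to 25 per toceranib library (-2.07 ± 0.59, edgeR adjusted p = 0.0170). DERL2, HYOU1, SEC23B, SEC24D, TXNDC5 and XBP1 were called under each of the 11 alternatives. None of these alternatives removes the difference in vehicle. For TXNDC5 the DPBS libraries (85.3 to 97.3 CPM) lay below every DMSO library (136 to 187 CPM). Its log2 fold change was 0.19 for sorafenib against DMSO and -0.09 for toceranib against DPBS. DPBS also lay below DMSO for HYOU1 (137 to 157 and 158 to 295 CPM). For DERL2, SEC23B, SEC24D and XBP1 the vehicle ranges overlapped. Without KU-cHCC-004 or KU-cHCC-005 the calls for HSPA5, P4HB, SYVN1, EDEM1, DNAJC3, DNAJC10, HERPUD1, ATF6 and DERL3 ended, and 5 genes were higher and 2 lower in either case. Without the toceranib library of KU-cHCC-005 alone 9 were higher and 2 lower, and the calls for ATF6, DERL3, DNAJC3, DNAJC10 and HERPUD1 ended. Over all genes, higher and lower calls numbered 2824 and 3134 in the main fit, 1394 and 1623 without 004, and 1490 and 1627 without 005. They were 1972 and 2303 without that toceranib library. Of the further lists, COPII, cargo receptors and retrieval again had the highest share, with 22 of 29 genes higher and 1 lower with sorafenib than with toceranib.

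The lines also differed before any drug. With DMSO the median over the 41 genes of the ratio of the highest to the lowest line was 1.74, against 2.30 over all genes tested. DERL3 at its low counts apart, ERO1B (5.67 to 26.9 CPM) and HSPA13 (24.5 to 89.2 CPM) varied most between lines, both highest in KU-cHCC-001, and ERO1A stood at 66.9, 60.6, 211 and 196 CPM. KU-cHCC-001 was the lowest of the 4 lines with sorafenib, with toceranib and with DMSO in 12 of the 41 genes (16.1% of all genes tested). Among them were SDF2L1, with 20.5 CPM in KU-cHCC-001 and 41.2 to 47.3 CPM in the other DMSO libraries, and DNAJC10, with 101 CPM against 224 to 274 CPM. It was the highest in all 3 arms for HSPA13, HYOU1 and SEC24D (17.4% of all genes). Each line has 1 library per arm, so these levels have no test.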

How the data were processed

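RNA-seq gene counts of 16 libraries (4 canine lines, 4 arms) were analysed. The authors deposited 1 table of raw counts per library; TopHat is named in the submitters' processing notes, while the counter, strand setting and genome build are not stated in any source used. Entries sharing a symbol (500 of 39954) were summed, which left 39543 symbols. Counts were filtered with filterByExpr over all 16 libraries (15515 genes), TMM-scaled and tested with edgeR 4.0.16 (quasi-likelihood, robust; R 4.3.3), with Benjamini-Hochberg adjustment over all genes tested. SE is the log2 fold change divided by the square root of F. Drug comparisons used 12 libraries with cell line as block (6 residual degrees of freedom). The numbers pair samples because they name the line: same-line deviations correlated at 0.75 to 0.892 between sorafenib and DMSO, 0.555 to 0.794 between toceranib and DMSO, and -0.505 to 0.55 between toceranib and DPBS, which was therefore tested without the block in 16 libraries. CPM are TMM-scaled and not divided by gene length, so levels are not compared between genes. DESeq2 1.42.0, its size factors, no filter, no block, 16 libraries, 2 arms only and leaving out lines were alternatives. The procedure was also run on simulated counts that had the same drug effect in every line, so effects that differ by line were not covered. The 41 genes and the further lists were chosen with earlier results of these data known. Called genes were named, with full statistics for the 10 largest changes and the 5 sensors; of each further list up to 4 called genes with the smallest adjusted p were named, and other values near the threshold were named after they were seen. The DPBS libraries, and with toceranib that of line 005, did not fully match their labels. The toceranib library of line 004 held some stromal transcripts that were absent or low in its DMSO library. No sequences were used here.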

Additional observations from a re-analysis of the deposited data

Results flagged for a closer look

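In 164 groups of 4 libraries (41 genes in 4 arms), 8 held a library that stood apart from the other 3 by Dixon's criterion. That is about the share that chance gives, 1 group in 20. Of the 8 flags, 6 were in libraries labelled KU-cHCC-001, among them the DPBS library of that label, which did not match the line. With sorafenib, CALR was 633 CPM in KU-cHCC-001 and 880 to 932 CPM in the other lines, and MANF was 94.5 CPM against 180 to 201 CPM. With toceranib, DNAJC10 was 93.1 CPM in KU-cHCC-001 and 203 to 216 CPM in the others, XBP1 was 70.6 CPM against 101 to 108 CPM, and CALR was 1470 CPM in KU-cHCC-002 against 1040 to 1075 CPM. With DPBS, SEC24D was 87.2 CPM in the library labelled KU-cHCC-001 and 75.4 to 76.7 CPM in the others, and SIL1 was 64.2 CPM in the library labelled KU-cHCC-002 against 56.3 to 57.3 CPM. With DMSO, SDF2L1 was 20.5 CPM in KU-cHCC-001 and 41.2 to 47.3 CPM in the other lines.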

How the results depend on the processing

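For sorafenib against DMSO, without the replicate block 5 of the 41 genes were higher, 0 lower, and 461 of all genes were called (17, 1 and 2928 with it); the further lists then had 2 (signalling partners), 1 (other foldases), 0 (glycan), 4 (translocation), 10 (COPII) and 1 (other degradation) higher. The 8 libraries of both arms gave 27 higher, 5053 genes in all, 8 foldases and 12 glycan genes. Without the low-count filter 0 of the 41 were lower and 6 translocation genes higher, and with DPBS included 3 foldases were higher. Leaving out 1 line at a time gave 4 to 23 of the 41 higher, 0 to 1 lower, 596 to 3906 genes in all, and 2 to 3 signalling, 1 to 5 foldase, 1 to 8 glycan, 2 to 11 translocation, 10 to 20 COPII and 0 to 8 degradation genes higher.

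For toceranib against DMSO, DESeq2 called 7 of the 41 higher and 2396 genes in all (3 and 1162 by edgeR). Without the replicate block and in the 8 libraries of both arms 0 were higher and 0 lower, with 0 and 129 genes in all; with DPBS included 557 genes were called. Without the toceranib library of KU-cHCC-005 these were 0, 0 and 66. Leaving out 1 line gave 0 to 7 higher, 0 to 2 lower and 1 to 3044 genes in all. ATF6 ranged from -0.0865 (without KU-cHCC-002) to 0.2018 (without KU-cHCC-004).

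For sorafenib against toceranib, all genes called numbered 5958, 2280 without the replicate block, 3949 in 8 libraries and 3017 to 6750 with 1 line left out, which gave 5 to 16 of the 41 higher and 2 to 3 lower. EIF2AK3, not called, turned to -0.01837 with DESeq2, -0.0127 with its size factors and -0.104 without the toceranib library of line 005, and ranged from -0.2345 (without line 004) to 0.2123 (without line 002). For toceranib against DPBS, 0 of the 41 were called under any alternative, the replicate block included; DESeq2 called 90 genes in all, the 8 libraries 1, and leaving out 1 number 0 to 1. Without the low-count filter the median of all genes for sorafenib against toceranib was -0.17. Leaving out the DPBS libraries labelled 001, 002 and 004, an alternative chosen after seeing the data, called 0 of the 41, with the lone DPBS library assumed to vary like the other groups, and moved the median of all genes to 0.11 against DPBS. The cause of these changes was not tested. Fits with 1 line left out or with 2 arms rest on fewer libraries. Low counts limit DERL3.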
